A study of Mus musculus with 4 samples.

Results

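Erythroid barcodes of mouse bone, which a limit on haemoglobin transcripts takes out of the study's cell map, were described here by their haemoglobin share, their other genes and their number in each mouse. A barcode (the label of 1 droplet, usually 1 cell) was chosen by its UMI values: it belonged to them if it held 1000 or more UMIs (unique molecular identifiers, counted transcript molecules), at most 10% mitochondrial UMIs and at least 5% UMIs of genes whose symbol starts with Hba- or Hbb-. No upper limit on UMIs and no lower limit on genes applied. This rule found 531 of the 32485 barcodes that met the first and second conditions, out of 40003 deposited. The samples were bones of wild-type mice, either control mice (Ctrl, 2 libraries) or mice whose hindlimbs were unloaded by tail suspension for 28 days (HLU, 2 libraries), with 1 mouse in each library. Tibiae and femurs were flushed of marrow and digested before droplet sequencing of transcript 3′ ends, so the cells are those that marrow flushing left behind. The study's design text gives postnatal day 28, while its methods on unloading describe C57BL/6J mice 8 weeks old, and the age of these 4 mice was not resolved here.

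Red cells form in the marrow from progenitors that pass through proerythroblast and basophilic, polychromatic and orthochromatic erythroblast stages. Early stages carry Kit, Gata2 and the transcription factors Gata1 and Klf1, divide quickly and take up iron through the transferrin receptor Tfrc. Later stages fill with haemoglobin, lay down band 3 (Slc4a1) in the membrane, leave the cell cycle, expel the nucleus and continue as reticulocytes, which keep globin messages but make no new ones. Erythroblasts ripen around macrophages in the marrow and are released as reticulocytes into blood.

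The barcodes were spread very unevenly over the mice. Ctrl replicate 1 held 9 of them among 7346 qualifying barcodes, and Ctrl replicate 2 held 16 of 7652. HLU replicate 1 held 59 of 7772, and HLU replicate 2 held 447 of 9715, which is 84.2% of all of them. As shares these were 0.123% (exact Clopper-Pearson 95% interval 0.0560% to 0.232%), 0.209% (0.120% to 0.339%), 0.759% (0.578% to 0.978%) and 4.60% (4.19% to 5.04%), in the same order. The intervals cover counting error only. Both HLU libraries lay above both Ctrl libraries, and the HLU libraries themselves differed more than the HLU minimum differed from Ctrl. The Ctrl libraries averaged 0.166% ± 0.0612 (SD, n = 2) and the HLU libraries 2.68% ± 2.72 (SD, n = 2), with a two-sided exact permutation p of 0.33, the smallest that 2 against 2 libraries can give. The difference of 2.51 percentage points became 0.593 when HLU replicate 2 was left out and 4.44 when HLU replicate 1 was. With the floor lowered to 500 UMIs the groups overlapped (means of 0.517% and 2.91%, exact permutation p = 0.667).

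**Figure D1:**
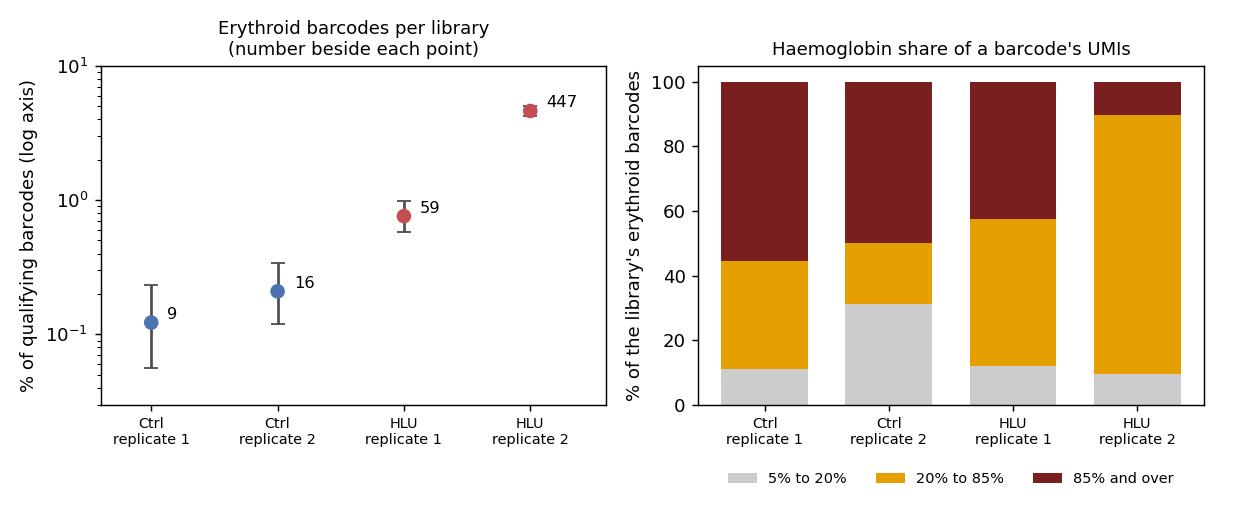
Left, erythroid barcodes as a percentage of the qualifying barcodes of each library on a log axis, with exact 95% binomial intervals and the number of barcodes beside each point; right, the share of each library's erythroid barcodes in 3 ranges of haemoglobin share. HLU replicate 2 stands at 4.60% against 0.123% and 0.209% in the Ctrl libraries, and 80.1% of its erythroid barcodes lie in the middle range.

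The libraries also differed in what was deposited. How the deposited barcodes were chosen, and whether alike in each library, is not given in the sources used here, and the shares above depend on it. Each library held 10000 or, in HLU replicate 2, 10003 barcodes, with 57925383, 61296053, 47819046 and 99849070 UMIs in total (Ctrl replicate 1, Ctrl replicate 2, HLU replicate 1, HLU replicate 2). Barcodes under 1000 UMIs numbered 2585, 2212 and 2143 in the first 3 of these and 267 in HLU replicate 2, so the library with most erythroid barcodes was also the deepest and held the fewest small barcodes. The part of depth in the result was not tested. Globin UMIs made up 0.0486%, 0.0941%, 0.303% and 1.06% of all UMIs in the libraries, the same order as the barcode counts, and 76.3% to 96.9% of them lay in the erythroid barcodes. No barcode sequence of the 531 occurred among the erythroid barcodes of more than 1 library, and pairs of libraries shared 23 to 36 barcode sequences over all deposited barcodes. Mitochondrial UMIs as a share of all UMIs, globins included, had medians of 0.0792%, 0.204%, 0.118% and 0.248% against 1.46%, 1.44%, 0.813% and 0.658% in barcodes with at most 0.2% haemoglobin. As a share of non-globin UMIs the medians were 0.882%, 1.53%, 0.641% and 0.67% in erythroid barcodes and 1.46%, 1.44%, 0.813% and 0.658% in the others. By these medians the replicates numbered 2 were slightly above the other cells and those numbered 1 below. Over summed UMIs the shares were 3.19%, 1.65%, 0.764% and 1.18% against 2.27%, 2.49%, 2.12% and 1.44%, with Ctrl replicate 1 alone above. The study's own limit, at most 0.2% of UMIs from red cell genes, applied to globins alone, would take out 29, 140, 186 and 582 qualifying barcodes. Between that limit and 5% lay 20, 124, 127 and 135 barcodes, of which 0, 0, 3 and 12 held at least 3 of the non-globin erythroid genes described further on.

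The 5% boundary, which used the globin values themselves, cut through a thin part of the distribution. From 4% to 5% there lay 0, 2, 2 and 3 barcodes, of which 0, 0, 2 and 2 held at least 3 non-globin erythroid genes, and from 5% to 6% there lay 0, 2, 1 and 5, of which 0, 0, 1 and 5 did. Among the members the median haemoglobin share was 86.8%, 82.7%, 68.5% and 59.2%, and the highest was 94.9%, 94.9%, 98.0% and 96.3%. HLU replicate 2 had most of its barcodes between about 40% and 75% and a smaller second group, with 19 from 85% to 90% and 22 from 90% to 95%, after 6 from 80% to 85%. The Ctrl libraries, with 9 and 16 barcodes, had their largest counts between 90% and 95%.

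**Figure D2:**
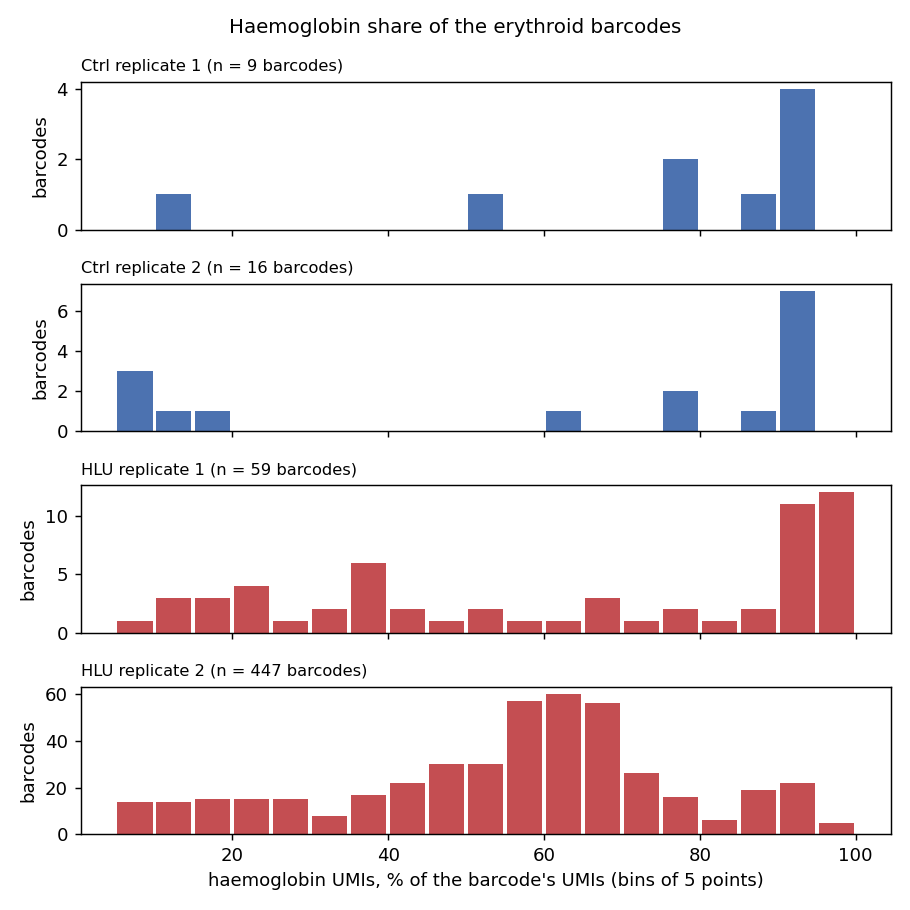
Number of erythroid barcodes (vertical axis, own scale per panel) in bins of 5 percentage points of haemoglobin share (horizontal axis), 1 panel per library. HLU replicate 2 peaks between 55% and 70%, and HLU replicate 1 and both Ctrl libraries peak above 90%.

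Adult globin genes made up nearly all of the haemoglobin signal, which selected these barcodes and is given as a description only. Hbb-bs (chr7:103826534-103828096, minus strand, mm10) and Hbb-bt (chr7:103812524-103813996, minus strand) encode the adult beta chains, and Hba-a1 (chr11:32283511-32284465, plus strand) and Hba-a2 (chr11:32296489-32297298, plus strand) the adult alpha chains. Hbb-bs gave 63.9%, 62.5%, 59.9% and 55.4% of the globin UMIs, and Hba-a1 gave 16.2%, 16.1%, 17.9% and 18.3%. In the sums over all erythroid barcodes, Hbb-bt took a larger share in the libraries with more of them, with 8.15%, 8.29%, 9.39% and 13.4%. The ratio of Hbb-bs to Hbb-bt was 7.84, 7.54, 6.38 and 4.12. Over the ranges of haemoglobin share described further on (5% to 20%, 20% to 85%, and 85% and over) that ratio was 3.85, 4.15 and 4.06 in HLU replicate 2, and 11.4, 7.44 and 5.92 in HLU replicate 1. It was 8.85, 9.33 and 7.51 in Ctrl replicate 1, and 9.13, 5.96 and 7.99 in Ctrl replicate 2. Within the ranges the order of the libraries thus differed from that in the sums, while HLU replicate 2 was lowest in each. Alpha to beta UMIs stood at 0.388, 0.413, 0.443 and 0.453. Embryonic globins were all but absent: Hbb-y had 9 UMIs and Hbb-bh1 had 1 in HLU replicate 2, Hba-x had 1 in HLU replicate 1, and the Ctrl libraries had none. The 3′ ends of these pairs share long stretches, since 71.1% of all windows of 90 bases in the last 400 bases of the Hba-a1 transcript and 48.9% of those of Hbb-bs occur unchanged in their partner, so the split within each pair is uncertain.

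The start regions of these globin genes and of Alas2, the erythroid enzyme of the first step of haem synthesis, show the letters that the erythroid factors GATA1 and KLF1 are known to read. The 250 bases before the RefSeq start are printed 5′ to 3′ on the gene's strand (RefSeq, GRCm38.p6), with AGATAA or TGATAA (on either strand) and CACCC (on either strand) in capitals. The windows are chr7:103827929-103828178 (minus strand) for Hbb-bs, chr7:103813924-103814173 (minus strand) for Hbb-bt, chr11:32283422-32283671 (plus strand) for Hba-a1 and chrX:150547167-150547416 (plus strand) for Alas2.
Hbb-bs: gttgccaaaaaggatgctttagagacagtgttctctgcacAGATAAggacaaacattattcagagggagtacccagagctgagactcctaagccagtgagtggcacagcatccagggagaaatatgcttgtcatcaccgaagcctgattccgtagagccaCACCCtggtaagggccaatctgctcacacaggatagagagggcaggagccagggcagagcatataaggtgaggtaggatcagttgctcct
Hbb-bt: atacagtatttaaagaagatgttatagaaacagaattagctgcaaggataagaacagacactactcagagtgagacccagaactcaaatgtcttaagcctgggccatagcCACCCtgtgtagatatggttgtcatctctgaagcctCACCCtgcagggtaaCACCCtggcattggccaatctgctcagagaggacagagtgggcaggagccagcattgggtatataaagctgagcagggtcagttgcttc
Hba-a1: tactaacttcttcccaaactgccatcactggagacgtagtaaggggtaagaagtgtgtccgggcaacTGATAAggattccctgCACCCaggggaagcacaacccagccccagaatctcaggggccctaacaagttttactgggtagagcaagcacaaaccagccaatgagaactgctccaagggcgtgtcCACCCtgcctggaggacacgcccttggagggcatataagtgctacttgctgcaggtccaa
Alas2: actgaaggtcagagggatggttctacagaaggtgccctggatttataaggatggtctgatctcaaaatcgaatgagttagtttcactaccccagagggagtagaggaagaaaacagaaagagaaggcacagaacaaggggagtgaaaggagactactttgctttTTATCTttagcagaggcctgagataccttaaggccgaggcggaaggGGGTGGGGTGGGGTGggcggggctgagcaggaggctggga
A CACCC stands in all of these windows and in 52.0% of all 32851 promoter windows of that length. An AGATAA or TGATAA stands in those of Hbb-bs, Hba-a1 and Alas2, but not Hbb-bt, and in 16.6% of all windows. Matches of letters are a description of the sequence and show no binding.

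Genes that the rule did not use were erythroid in most barcodes of each library, with the lowest share in Ctrl replicate 2. Of 20 listed erythroid genes other than globins, 19 were in the files. At least 3 of these had a UMI in 6 of 9 barcodes of Ctrl replicate 1 (66.7%, exact interval 29.9% to 92.5%), 9 of 16 of Ctrl replicate 2 (56.3%, 29.9% to 80.2%), 42 of 59 of HLU replicate 1 (71.2%, 57.9% to 82.2%) and 415 of 447 of HLU replicate 2 (92.8%, 90.04% to 95.1%). Barcodes with at most 0.2% haemoglobin, which hold the other cells of the bone, reached that count in 0.109%, 0.1997%, 0.369% and 0.383% of cases, although their median depth was 6312, 5957, 3883.5 and 6654 UMIs against 302, 604, 566 and 1358 non-globin UMIs in the erythroid barcodes. The mean was 61.5% ± 7.37 (SD, n = 2) for Ctrl and 82.0% ± 15.3 (SD, n = 2) for HLU, with an exact permutation p of 0.33. Counting only barcodes of at least 20% haemoglobin, or thinning to 500 non-globin UMIs, let the groups overlap (exact permutation p = 0.667 in each). At 20% to 85% haemoglobin the order turned, with 3 of 3 and 3 of 3 Ctrl barcodes against 92.6% and 98.6% in HLU.

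Of the 5 markers given for the label, 3 were plain and 2 were nearly missing. Carbonic anhydrase 2 (Car2, chr3:14886273-14900770) had 31, 65, 366 and 7141 UMIs, which is 30.7, 20.8, 47.8 and 67.0 per 10000 non-globin UMIs. Klf1 (chr8:84901928-84905291), the factor that switches on adult beta globin, had 0, 0, 10 and 64 UMIs. Carbonic anhydrase 1 (Car1, chr3:14766216-14808368) had 0, 0, 13 and 9. Hbb-bs and Hba-a1 were the rule's own genes. Car2 was found in all 4 libraries, and in these sums the HLU libraries lay above the Ctrl ones. At 20% to 85% haemoglobin, where Ctrl has 3 barcodes a library, it stood at 180.5, 98.7, 60.6 and 98.5, so that the replicates numbered 2 were nearly equal and HLU no longer lay above Ctrl (log2 difference -0.14). Klf1 was scarce, and Car1 was close to absent from these barcodes. Car2 did not pass the test given further on.

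Ranges of haemoglobin share of 5% to 20%, 20% to 85%, and 85% and over, set after the values were seen, held barcodes of different make-up. They held 1, 3 and 5 barcodes in Ctrl replicate 1, 5, 3 and 8 in Ctrl replicate 2, 7, 27 and 25 in HLU replicate 1, and 43, 358 and 46 in HLU replicate 2. The middle range thus held 33.3%, 18.8%, 45.8% and 80.1% of the erythroid barcodes, and the top range 55.6%, 50%, 42.4% and 10.3%. Between 80% and 90% haemoglobin, near the upper boundary, lay 1, 1, 3 and 25 barcodes. These shares follow from the globin values that chose the barcodes and are given as a description.

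Malat1 (chr19:5795690-5802672), a long non-coding RNA that stays in the nucleus, told the top range from the middle one in HLU. In the middle range it made up 2.77%, 9.62%, 3.07% and 7.34% of the non-globin UMIs. At 85% haemoglobin and over it made up 3.11%, 0.646%, 0.08% and 0.0769%, and no Malat1 UMI was found in 21 of 25 barcodes of HLU replicate 1 and in 37 of 46 of HLU replicate 2. The 5 and 8 Ctrl barcodes of the top range, by contrast, each held Malat1, with 47 UMIs in all in replicate 1 and 15 in replicate 2. Barcodes of the top range were small outside globins, with a median of 221, 279.5, 167 and 326.5 non-globin UMIs, so that missing a gene in 1 barcode says little.

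The low range was made of larger barcodes, and in Ctrl replicate 2 most of them carried neutrophil messages. Its median non-globin content was 7025, 2874, 2550 and 4975 UMIs, and barcodes with at least 10% neutrophil UMIs numbered 0 of 1, 4 of 5, 2 of 7 and 10 of 43 in it. In HLU replicate 2 the bin from 20% to 40% had a larger such number, 18 of 55. In Ctrl, this range held most of the non-globin UMIs, with 69.7% of them in replicate 1, from a single barcode, and 80.9% in replicate 2, against 30.6% and 36.8% in the HLU libraries. Levels over all Ctrl erythroid barcodes are therefore divided mainly by the UMIs of these few barcodes. At least 3 non-globin erythroid genes were found in 0 of 1, 2 of 5, 6 of 7 and 38 of 43 of them.

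Summed over the barcodes of each library, messages of late erythroid stages were common and those of the earliest stage scarce. The red cell membrane list (20 genes of the membrane and its skeleton) gave 48.6, 47.4, 123.6 and 127.7 UMIs per 10000 non-globin UMIs, against 0.465 to 0.683 in barcodes with low haemoglobin. Late maturation genes (14 genes of nuclear export, ubiquitin transfer and organelle clearance) gave 153.7, 99.6, 120.2 and 197.3, against 5.27 to 8.93. The haem synthesis list gave 95.2, 76.5, 120.2 and 99.3, against 11.8 to 24.1. Its 12 genes include Hmox1 and Blvrb, which act in haem breakdown, and the haem exporter Flvcr1. The progenitor and proerythroblast list (8 genes) gave only 5.95, 2.24, 2.09 and 3.46, beside 4.21 to 5.40 in low-haemoglobin barcodes. Of that list, Cd44 alone had 6, 5, 12 and 204 UMIs. In Ctrl replicate 1, 5 of these 6 came from the 1 barcode of the low range. The iron list (12 genes, ferritin included) gave 170.6, 220.3, 402.2 and 352.9, beside 402 to 553 in low-haemoglobin barcodes. Kit, the stem cell factor receptor, had 0, 0, 0 and 44 UMIs, Gata2 had 0, 1, 0 and 9, and Gata1 had 0, 0, 2 and 29. In HLU replicate 2 the low range held 39 of the 44 Kit and 8 of the 9 Gata2 UMIs, but only 3 of the 29 Gata1 UMIs. It also held 753 of the 756 UMIs of the basophil and mast cell list, all 5 genes of which were found there, led by Prss34 with 316. The 4 barcodes with at least 10 UMIs of that list, a limit set after the values were seen, held 752 of these UMIs, 6 of the Gata2 UMIs, 1 of the Gata1 UMIs and 0 of the Kit UMIs. The list sums mix the ranges, and in Ctrl most of the non-globin UMIs that divide them come from the low range. At 20% to 85% haemoglobin, where Ctrl has 3 barcodes a library, membrane genes gave 193.4, 257.6, 150.5 and 188.4, late maturation genes 419.1, 509.7, 112.9 and 285.1, and haem synthesis genes 309.5, 230.2, 105.7 and 133.8. For each of these lists both Ctrl libraries then lay above both HLU libraries, which was not so in the sums. The Ctrl barcodes lay higher within that range, with 2 of 3 in each library at 75% to 85% haemoglobin. In HLU 3 of 27 and 22 of 358 lay there. Orders in that range thus compare barcodes of unlike haemoglobin share, and how many of all genes were ordered so was not counted.

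**Figure D3:**
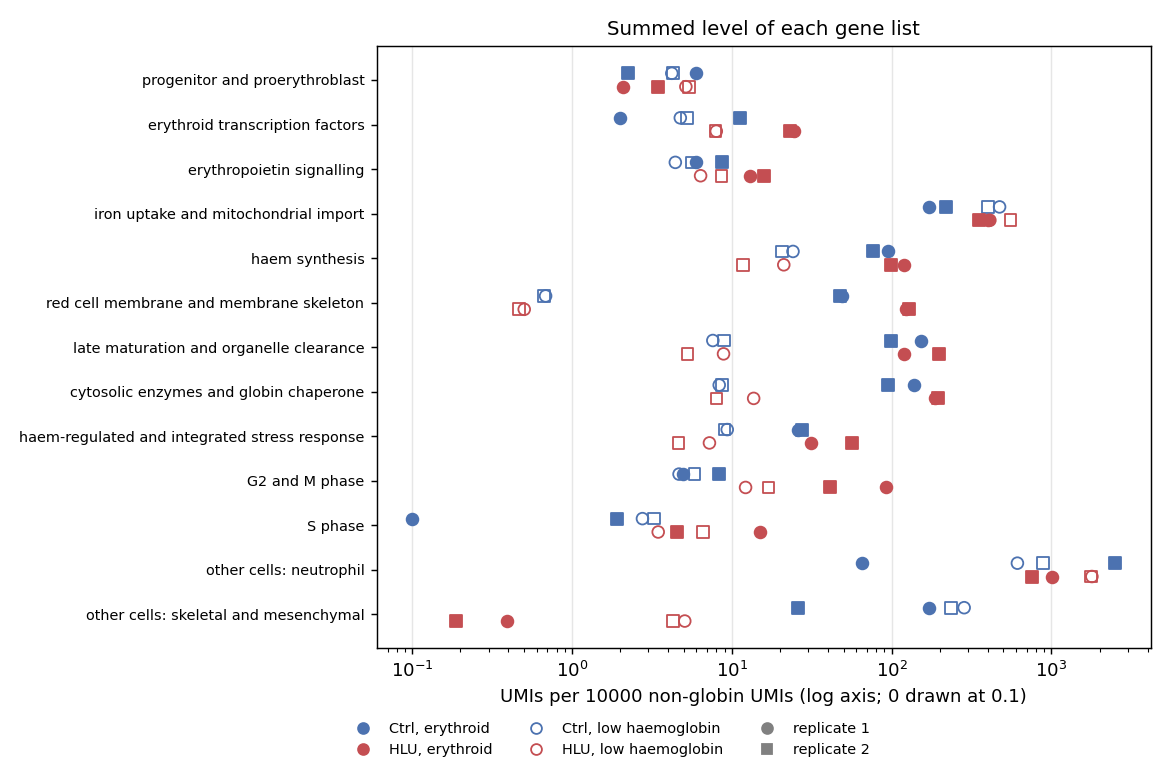
Summed UMIs of each gene list per 10000 non-globin UMIs (horizontal log axis) in erythroid barcodes (filled) and in barcodes with at most 0.2% haemoglobin (open), by group (colour) and replicate (shape). Values of 0 are drawn at 0.1. Red cell membrane genes lie between 47.4 and 127.7 in filled points and between 0.465 and 0.683 in open ones, while filled and open points of progenitor genes all lie between 2.09 and 5.95.

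Among membrane genes, the anion exchanger Slc4a1 (chr11:102348824-102366203) had 3.97, 11.2, 27.0 and 31.6 UMIs per 10000 non-globin UMIs. In these sums each HLU library lay above both Ctrl libraries, but at 20% to 85% haemoglobin Slc4a1 stood at 12.9, 65.8, 34.9 and 46.5, so that the groups overlapped and Ctrl replicate 2 was highest. Tspo2, a cholesterol carrier of erythroblasts, had 1.98, 1.60, 5.09 and 8.24. In haem synthesis, Alas2 (chrX:150547375-150570638) led with 68.4, 39.7, 51.2 and 31.6, and the libraries of the groups overlapped. For iron, the mitochondrial importer Slc25a37 had 7.93, 9.93, 31.3 and 17.1, and Tfrc (chr16:32608920-32632794) had 0, 2.88, 11.9 and 10.8. Of these, only Alas2 was highest in a Ctrl library in the sums. At 20% to 85% haemoglobin Alas2 stood at 199.9, 87.7, 35.3 and 43.5, with both Ctrl libraries above both HLU libraries, and Slc25a37 (12.9, 43.8, 39.2 and 23.4) and Tspo2 (6.45, 8.22, 5.61 and 12.2) overlapped between the groups, on as few as 1 to 3 Ctrl UMIs for Tspo2. Tfrc stood at 0, 5.48, 14.5 and 15.6 there, with 0 and 2 Ctrl UMIs. At 75% to 85% haemoglobin, on 2, 2, 3 and 22 barcodes, Alas2 stood at 224.0, 120.0, 160.7 and 80.9, with the groups overlapping.

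Among late genes, Bpgm (chr6:34476207-34505613), whose product makes the oxygen-affinity regulator 2,3-bisphosphoglycerate, had 41.6, 22.7, 18.0 and 26.7 UMIs per 10000 non-globin UMIs. The ubiquitin ligase Mkrn1 had 29.7, 32.0, 30.4 and 50.4. Xpo7, an exportin needed when the nucleus condenses, had 0.992, 4.48, 4.96 and 28.0. In the middle range, from 20% to 85% haemoglobin, Bpgm stood at 96.7, 131.5, 10.2 and 36.5, with both Ctrl libraries above both HLU libraries. Mkrn1 stood at 83.8, 183.6, 32.6 and 73.2 there, again with Ctrl above HLU. Xpo7 stood at 6.45, 24.7, 7.47 and 42.1 there, with the groups overlapping. At 75% to 85% haemoglobin Mkrn1 overlapped between the groups (81.5, 210.0, 98.9 and 148.6), while Bpgm stayed higher in Ctrl (122.2, 168.7, 111.2 and 71.6). Among the transcription factors, E2f2, which acts in cell cycle exit, had 0, 1.28, 5.74 and 3.90, and Sox6, a partner in globin switching, had 0, 1.28, 2.48 and 5.31. Pro-survival Mcl1 had 8.92, 6.73, 5.74 and 1.38. In the middle range E2f2 had 0 and 1 Ctrl UMIs, Sox6 had 0 and 4, and Mcl1 had 1 in each Ctrl library, too few to place Ctrl.

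Within the HLU libraries, where barcodes were enough for finer bins, genes followed different courses along the haemoglobin share (genes chosen after their values were seen). In HLU replicate 2, Malat1 went from 186 per 10000 non-globin UMIs at 5% to 20% haemoglobin to 1041 at 40% to 60% and 7.69 at 85% and over. Tfrc went from 3.24 to 23.3 and then 1.28, Xpo7 from 5.41 to 49.1 and 1.28, and Slc4a1 from 7.38 to 60.7 and 7.69. The proliferation marker Mki67 (chr7:135689784-135716361) was highest at 40% to 60%, with 19.4, and had no UMI in the top bin. In HLU replicate 1 it was highest at 20% to 40%, with 28.1, and had 1 UMI in the top bin, while Malat1 (648) and Xpo7 (37.1) were highest at 60% to 75%, so that the libraries differed in where these genes were highest. In HLU replicate 2 Xpo7 was highest at 75% to 85%, with 56.9. In both libraries all of these genes were lower in the top bin than in the bin before it.

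A second set of genes was highest in the top bin. In HLU replicate 2, Alas2 went from 5.44 at 5% to 20% haemoglobin to 41.1 at 40% to 60% and 182 at 85% and over. Bpgm went from 4.39 to 30.4 and 170.6. Fech, which inserts iron into haem, went from 1.71 to 9.97 and 24.4. HLU replicate 1 gave the same order for Alas2 (9.39, 37.7 and 400) and Bpgm (1.28, 8.08 and 172), but 5 of its bins hold under 20 barcodes. In that library Malat1 went from 157 to 430 and 8.0. Without the barcodes of 10% or more neutrophil UMIs, Malat1 in HLU replicate 2 went from 191 to 1107 and 4.70, and Alas2 from 5.38 to 42.4 and 185. The median non-globin content fell from 4975 to 1215 and 326.5 UMIs over the same bins, and depth thus moved with the haemoglobin share.

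**Figure D4:**
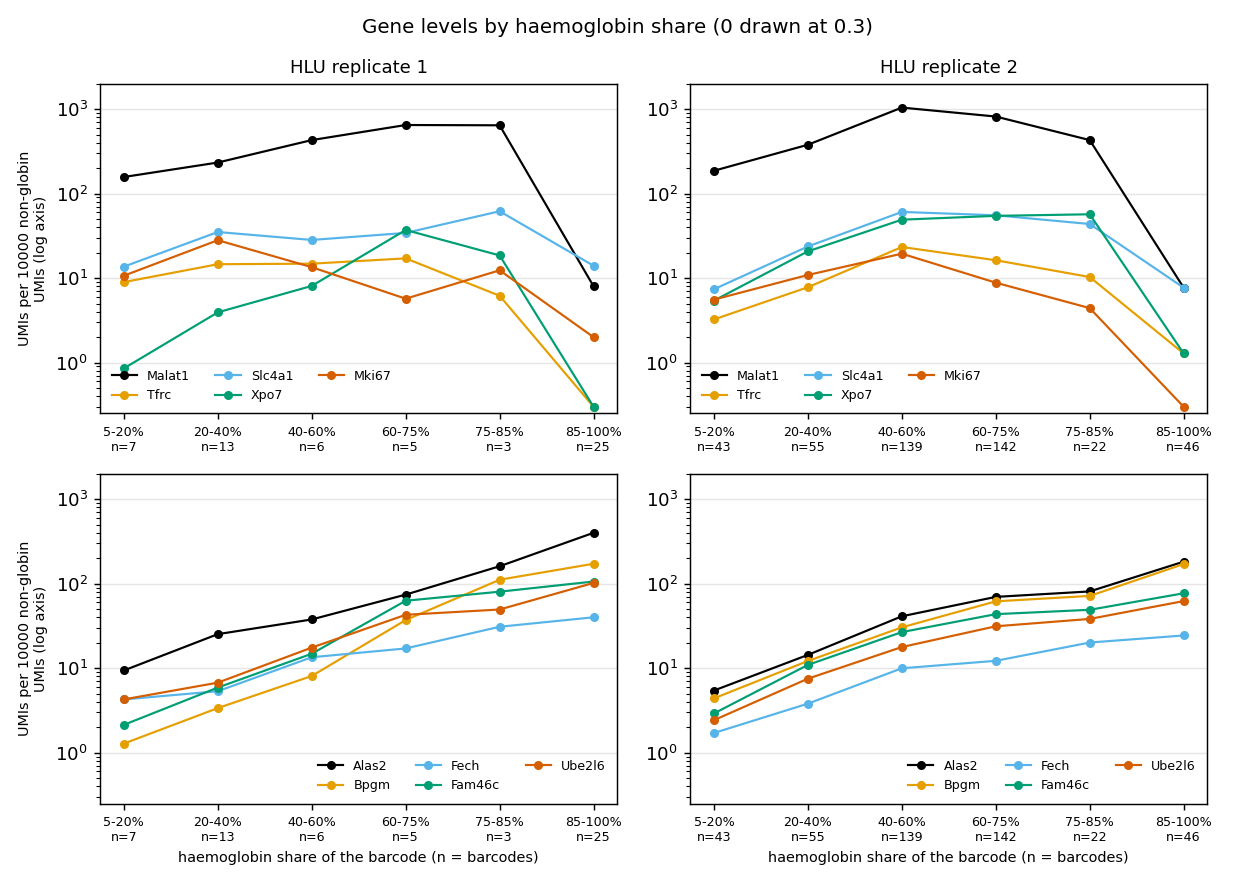
UMIs per 10000 non-globin UMIs (vertical log axis, 0 drawn at 0.3) of 10 genes in 6 bins of haemoglobin share (horizontal axis, number of barcodes under each) in the HLU libraries. Malat1, Tfrc, Slc4a1, Xpo7 and Mki67 drop in the last bin, while Alas2, Bpgm, Fech, Fam46c and Ube2l6 are at their highest there.

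A few further genes were chosen after the values were seen. The antiviral gene Rsad2 had 4.96, 2.56, 4.83 and 25.1 UMIs per 10000 non-globin UMIs in the erythroid barcodes, against 0.0462 to 0.142 in low-haemoglobin barcodes, and Isg15, a ubiquitin-like modifier, had 0, 0.641, 2.87 and 18.1. Slfn14, a ribosome-associated endonuclease, had 0, 2.24, 1.83 and 15.05. Ube2l6, a ubiquitin-conjugating enzyme, had 14.9, 14.4, 15.8 and 14.0, and Isg20, an RNA exonuclease, had 7.93, 6.08, 6.79 and 9.53. At 75% to 85% haemoglobin Ube2l6 stood at 30.5, 45.0, 49.4 and 38.3, with the groups overlapping. In the whole range of 20% to 85% it stood at 38.7, 41.1, 12.5 and 19.7, with both Ctrl libraries above both HLU libraries. Isg20 stood at 25.8, 10.96, 4.77 and 13.8 there and Slfn14 at 0, 19.2, 2.91 and 23.2, with the groups overlapping, while Rsad2 had 3 and 2 Ctrl UMIs and Isg15 had 0 and 1. From the list fixed for the haem-regulated and integrated stress response, Ppp1r15a, which restores translation, had 15.9, 23.1, 18.7 and 32.5, and Ddit3, a stress-induced transcription factor, had 0, 0.320, 1.96 and 5.07. In the middle range Ppp1r15a stood at 32.2, 142.5, 27.6 and 48.9, with Ctrl replicate 2 highest. Ppp1r15a peaked at 75% to 85% haemoglobin in HLU replicate 2, with 91.2, and stood at 1.92 in the top bin. The ubiquitin gene Ubb was, by contrast, highest in Ctrl in the sums, with 164.6, 118.5, 76.2 and 71.3. At 20% to 85% haemoglobin it stood at 245.0, 507.0, 51.3 and 98.9, again with Ctrl above HLU. Ctrl was also above at 75% to 85%, with 336.0, 663.7, 327.6 and 266.8. At 85% and over it stood at 603.0, 275.6, 508 and 204.6, with the groups overlapping.

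Mitotic messages were counted in barcodes of equal depth. After thinning to 500 non-globin UMIs, which left out 5, 8, 28 and 50 shallower barcodes, at least 2 of the 20 G2 and M genes had a UMI in 1 of 4 barcodes of Ctrl replicate 1, 0 of 8 of Ctrl replicate 2, 15 of 31 of HLU replicate 1 and 110 of 397 of HLU replicate 2. These are 25% (exact interval 0.631% to 80.6%), 0% (up to 36.9%), 48.4% (30.2% to 66.9%) and 27.7% (23.4% to 32.4%). The Ctrl shares rest on 4 and 8 barcodes, their intervals reach those of HLU, and Ctrl replicate 1 lay close to HLU replicate 2. Unthinned shares were 22.2%, 12.5%, 37.3% and 53.9%, with the order of the HLU libraries turned round. The group difference, 25.5 percentage points between 12.5% ± 17.7 (SD, n = 2) and 38.0% ± 14.6 (SD, n = 2), gave an exact permutation p of 0.33. At 20% to 85% haemoglobin, it was 42.2 points, with 0 of 2 and 0 of 3 Ctrl barcodes left. S phase genes were rarer, with at least 2 of 20 in 0 of 4, 0 of 8, 6 of 31 and 13 of 397 barcodes. As sums, G2 and M genes gave 4.96, 8.33, 91.9 and 41.4 UMIs per 10000 non-globin UMIs, beside 4.67, 5.83, 12.2 and 17.0 in low-haemoglobin barcodes. Mki67 had 1, 3, 140 and 1050 UMIs and Top2a, the topoisomerase of chromosome separation, had 0, 0, 69 and 238.

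The HLU and Ctrl sums were compared gene by gene with edgeR's quasi-likelihood test on 792 genes that passed its filter, with globins left out. The test called 8 genes at an adjusted p (Benjamini-Hochberg) under 0.05, all lower in HLU, which is 1.01% of the genes tested. None was called higher (0%), beside 41 higher and 38 lower genes at an unadjusted p under 0.05, and DESeq2 called 14, all lower. All 8 reached the filter's minimum level in Ctrl libraries alone, and a gene that enters the test through 1 group alone has to differ, so their common direction is not read from this count. Without a filter on low counts all 8 were also called, with edgeR adjusted p-values of at most 0.00082. They were picked from the filtered test, so this is no separate support. Of the 8, Dcn and Clu belong to the fixed list of skeletal and mesenchymal genes described below, and no set test was run on the 8. Decorin (Dcn, chr10:97479609-97518143), a collagen-binding proteoglycan, had 107, 48, 1 and 6 UMIs (log2 difference -9.79, SE 1.35, edgeR adjusted p = 0.00752). Lubricin (Prg4, chr1:150449412-150466165), the joint lubricant, had 15, 43, 0 and 6 UMIs (-8.25, SE 1.01, edgeR adjusted p = 0.00752). The matrix protease Mmp3 (chr9:7445822-7455975) had 15, 35, 0 and 15 (-6.97, SE 1.03, edgeR adjusted p = 0.00867), and Clu, a secreted chaperone named after its values were seen, had 6, 20, 0 and 5 (-7.24, SE 1.001, edgeR adjusted p = 0.00752). Cartilage matrix genes Comp (28, 6, 0 and 2 UMIs) and Chad (36, 9, 0 and 3), Ctgf (13, 12, 0 and 2) and 1500015O10Rik (30, 16, 0 and 1) made up the rest. Their folds, on at most 3 HLU UMIs, are not given. Prg4, Mmp3 and Clu had 0 UMIs in HLU replicate 1 and at most 15 in HLU replicate 2. The size of their folds is thus uncertain too. Over barcodes with at least 3 non-globin erythroid genes, Comp, Chad and Ctgf did not pass the filter. The same held over barcodes of at least 20% haemoglobin. The other 5 of the 8 were called in both settings, which is no separate support. Dcn, Prg4 and 1500015O10Rik were called whichever library was left out. They were picked from the main test, which they entered through Ctrl alone, so these calls are a description only. Without Ctrl replicate 1 the test called 4 genes, all among the 8, while Mmp3 was not called (log2 difference -6.67, edgeR adjusted p = 0.0626) and Comp, Chad and Ctgf did not pass the filter. Without Ctrl replicate 2 it called 31, and Clu did not pass the filter. Clu was tested but not called without HLU replicate 1 (-7.07, edgeR adjusted p = 0.0565).

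Skeletal messages were also lower in both HLU libraries than in both Ctrl libraries in barcodes with at most 0.2% haemoglobin. The skeletal and mesenchymal list (10 genes) gave 170.6, 25.9, 0.392 and 0.188 UMIs per 10000 non-globin UMIs in the erythroid barcodes and 284, 234, 5.07 and 4.30 in those with low haemoglobin. All 9 and all 16 Ctrl erythroid barcodes held a UMI of these genes, against 3 of 59 and 17 of 447 in HLU. In Ctrl replicate 1, 139 of the 172 UMIs came from the 1 barcode of the low range. Osteocalcin (Bglap) had 36, 0, 0 and 2 UMIs, Cxcl12 had none in any library, and Dcn was the list's most abundant gene in Ctrl. Cell mixture and free RNA as sources were not tested. Neutrophil genes (10) gave 65.4, 2510, 1008 and 754, and those of B cells, T and NK cells, megakaryocytes, basophils and endothelium gave at most 7.09 each. Monocyte and macrophage genes gave 0, 2.24, 3.26 and 21.0.

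No erythroid gene passed the test. Over the 9 erythroid lists, 50 of 110 genes were tested and 0 were called by edgeR or by DESeq2. By edgeR 5 of the 50 had an unadjusted p under 0.05, beside 79 of all 792 genes tested. Of these 5, 2 reached the filter's minimum level in HLU libraries alone. Genes enter the test by reaching a minimum level in at least 2 libraries. Of the 50, 9 reached it in HLU libraries alone and none in Ctrl libraries alone, against 86 and 61 of all 792, and no direction is read from those 9. Of the other 41, both HLU libraries lay above both Ctrl libraries for 17 and below them for 1, beside 108 and 76 of the 645 genes that entered through both groups in all. Over all genes tested, whichever way they entered, HLU lay above for 24.5% and below for 17.3%, and groups did not overlap in 41.8%. Tfrc had a log2 difference of 2.40 (SE 0.96, adjusted p = 0.413), Slc4a1 of 1.66 (SE 0.71, adjusted p = 0.477) and Xpo7 of 2.24 (SE 0.997, adjusted p = 0.495), all by edgeR, and Xpo7 overlapped between the groups after TMM scaling. Car2 stood at 0.98 (SE 0.72, adjusted p = 0.746), Tspo2 at 1.75 (SE 0.86) and Slc25a37 at 1.19 (SE 0.64). Alas2, at -0.59 (SE 0.74), and Bpgm, at -0.69 (SE 0.68), had the opposite sign. Without a filter on low counts both turned positive, a setting under which the median of all genes moved from 0.07 to 1.90.

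By list, 12 of 20 membrane genes were tested, 9 of them at the minimum level in both groups, of which 5 were above in both HLU libraries. Of 6 iron genes tested 5 entered through both groups and 4 of these were above. On the haem synthesis list 6 genes were tested, Hmox1 and Blvrb of haem breakdown included. All 6 entered so and 3, among them Blvrb, were above. Of 10 late maturation genes all entered so, with 1 above and 1 below. Of 5 genes tested on the list of cytosolic enzymes, which also holds the receptor Adipor1, all did, with 3 above. Of 4 transcription factors 3 entered through HLU alone, and of 4 stress response genes 2 did. In the progenitor list Cd44 alone was tested (groups overlapping). Of 2 erythropoietin signalling genes tested, each entered through both groups and 1 was above. Beside these counts, 108 of all 645 genes that entered through both groups were above in both HLU libraries and 76 below. None of these lists had a called gene, and the middle-range levels above show that the sums and that range can order the groups differently.

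Mitotic and cell death genes were called by neither tool in the main comparison. The G2 and M gene Cenpf (0, 0, 52 and 334 UMIs) was called by edgeR without a filter on low counts. Of 20 listed G2 and M genes 6 were tested, and 5 of these entered through the HLU libraries alone, so no direction is read from these. Mki67 is 1 of the 5 and was not called (edgeR adjusted p = 0.115). Ube2c, which entered through both groups, had a log2 difference of 1.41 (SE 0.78, edgeR adjusted p = 0.627). Of 16 listed Bcl-2 family and apoptosis genes 4 were tested, and Bax, Bbc3 and Birc5 entered through the HLU libraries alone, while Mcl1, which entered through both groups, was not called (-1.40, SE 0.86, edgeR adjusted p = 0.656). Bax had 0, 2, 19 and 199 UMIs, Bbc3 had 0, 1, 22 and 210, and Birc5 had 0, 0, 40 and 235. The glutamine list had 2 of 12 tested, Glul and Slc7a11, whose groups overlapped, and Slc1a5, a glutamine carrier, had 0, 0, 15 and 53 UMIs.

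**Figure D5:**
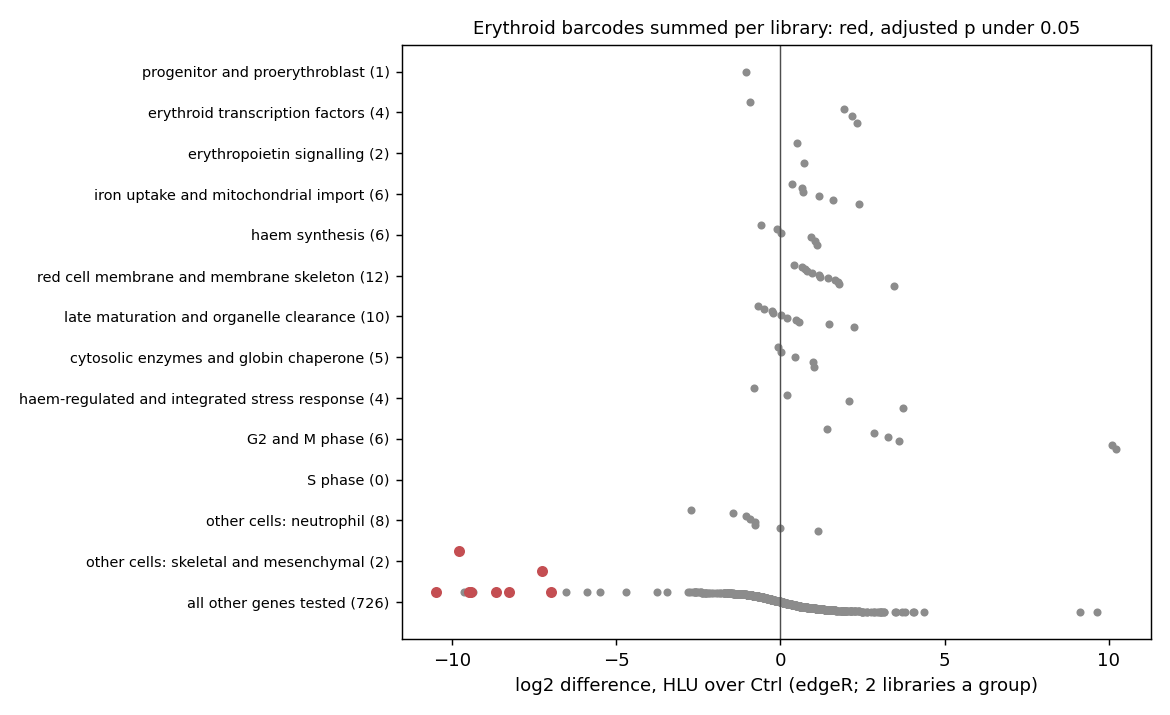
Log2 difference of HLU over Ctrl (horizontal axis, edgeR, 2 libraries a group) for every gene tested, 1 row per list with the number of genes tested in parentheses; red marks an adjusted p under 0.05. The 8 red genes lie below -6, and no gene of an erythroid list is red.

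Depth differed widely between the compared sums, and its part in the number of calls was not tested. The erythroid barcodes summed to 10085, 31225, 76595 and 1066113 non-globin UMIs, so a gene at 1 per 10000 would give about 1 UMI in Ctrl replicate 1. Over barcodes of at least 20% haemoglobin 11 of 437 genes were called, 1 of them higher in HLU, and over those at 20% to 85% and those at 85% and over, 3 of 439 and 4 of 51 were called, all lower.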

How the data were processed

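Single-cell RNA sequencing libraries of bone from 2 Ctrl and 2 HLU mice were used, grouped by the sample titles. Cell Ranger 6.0.0, mm10 and Seurat 4.1.0 are named in the submitters' processing notes and the study's methods; the values that the authors deposited are raw UMI counts per gene and barcode, not normalized. The deposited feature and barcode names served as identifiers only. No doublets were removed here. Members and gene lists were chosen with earlier results of these data known. Erythroid barcodes were selected by the stated rule, and levels were computed as UMIs per 10000 non-globin UMIs of the summed barcodes. Summed counts without Hba- and Hbb- genes were tested with edgeR 4.0.16 (filterByExpr, TMM factors, quasi-likelihood test, Benjamini-Hochberg adjustment over all genes tested, threshold 0.05), with DESeq2 1.42.0 as an alternative. Shares were compared by exact permutation tests over libraries and given exact binomial intervals (scipy 1.17.1, Python 3.11.15). The SE beside a log2 difference is its absolute value divided by the square root of edgeR's F statistic, not a fitted standard error. Thinning drew 500 non-globin UMIs per barcode. A check of the count test on simulated data is not reported here, and nothing rests on it. Named genes were the given markers, up to the 4 most abundant genes of each list with at least 50 UMIs, and called genes whose groups did not overlap (the 5 largest changes each way, and 5 more outside the other-cell lists); all other genes, among them Kit, Gata1, Gata2, Top2a, Slc1a5, Bglap, Cxcl12, Malat1 and Gm42418, were chosen after their values were seen. Positions come from GENCODE M21, start regions from RefSeq (GRCm38.p6). Each group has 2 mice, and p-values measure the spread between these libraries. The labels give no batch or date. A few genes of the lists are not reported here by name.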

Additional observations from a re-analysis of the deposited data

How the results depend on the processing

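The share of qualifying barcodes that are erythroid kept its direction under every alternative run, from 2.09 points at 2000 UMIs to 2.51 at 2% haemoglobin, and from 0.593 to 4.44 points when 1 library was left out. The difference in the share with at least 3 erythroid genes ran from 9.73 to 31.4 points over the alternatives listed, with HLU higher, but at 20% to 85% haemoglobin the shares were 100% in both Ctrl libraries (3 barcodes each) and 92.6% and 98.6% in HLU. The share with G2 and M genes differed by 13.0 to 38.0 points with 1 library left out, and by 42.2 points at 20% to 85% haemoglobin, an alternative added after seeing the data.

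The count of 8 called genes became 14 with DESeq2, 39 of 12187 without a filter on low counts (5 higher), 0 of 123 with at least 10 UMIs in every library (10 at an unadjusted p under 0.05), and 1 of 259 without barcodes over 1% neutrophil UMIs, which leaves 2 and 1 Ctrl barcodes against 13 and 295 in HLU. It was 3 at 20% to 85% haemoglobin and 4 at 85% and over, both added after seeing the data. Over barcodes with at least 3 non-globin erythroid genes it was 7 of 666, all lower. Leaving out 1 library gave 4 (Ctrl replicate 1) to 31 (Ctrl replicate 2) calls, with 14 without HLU replicate 1 and 20 without HLU replicate 2, where the lone sample of a group is assumed to vary like the other group. Fewer genes passed the filter in the stricter settings, and other causes were not tested. With the replicate number as a block 12 genes were called, all lower. Deviations of same-numbered libraries correlated at 0.02 over 792 genes. With 2 libraries a group this is a single correlation, so it cannot decide whether the numbers mark a pairing.

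For 28 genes followed through the alternatives, the sign of the log2 difference turned in 6 of 367 values, none of them called. These were Car2 to -0.14 and Mcl1 to 0.12 at 20% to 85% haemoglobin, Bpgm to 0.14 and Ube2c to -0.34 at 85% and over, and Alas2 to 0.43 and Bpgm to 0.42 without a filter. Cenpf was called without that filter. Library totals in place of TMM factors moved the median of all genes from 0.07 to 0.33.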

Other observations

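Car1 messages lay mostly outside the erythroid barcodes. Over all deposited barcodes Car1 had 38, 182, 32 and 144 UMIs (Ctrl replicate 1, Ctrl replicate 2, HLU replicate 1, HLU replicate 2), of which 0, 0, 13 and 9 were in erythroid barcodes. Qualifying barcodes under 5% haemoglobin with at least 10 Car1 UMIs, a limit chosen after the values were seen, numbered 2, 4, 0 and 3. Together they held 35, 162, 0 and 130 Car1 UMIs and 23, 9, 0 and 15 UMIs of Kit. Their haemoglobin share was at most 0.0184%, 0.0106% and 0.0338% in the libraries that had any, below the study's limit of 0.2%. Klf1 had 10, 18, 36 and 88 UMIs over all barcodes and 0, 0, 10 and 64 in erythroid ones.

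In Ctrl replicate 2, 75 qualifying barcodes held 1% to 4% haemoglobin, 68 of them with at least 10% neutrophil UMIs and 0 with at least 3 non-globin erythroid genes. The transcript Gm42418, chosen after its values were seen, stood at 179, 85.2, 145 and 701 UMIs per 10000 non-globin UMIs in erythroid barcodes and at 44.7, 41.8, 17.1 and 256 in low-haemoglobin ones.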
